A study of Rattus norvegicus with 56 samples.

Results

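The guanylate-binding protein genes Gbp2 and Gbp5 and the inflammasome genes Casp1, Casp4, Nlrp3 and Pycard were followed in the medial hypothalamus of rats after an intraperitoneal injection of lipopolysaccharide (LPS). A gene was measured where the array held a transcript cluster, the set of probes of 1 transcribed region, that carried its symbol and no other. Of the 6 genes 4 had such a cluster (Gbp5, Casp1, Nlrp3 and Pycard), out of 14557 genes that had one. Gbp2 and Casp4 had none and were left out. For a gene with several clusters the brightest by mean log2 over the 56 arrays stood for the gene, but each of the 4 had 1 cluster. The cluster of each gene was thus chosen by its mean level alone, which is given as a description: it was 4.85 for Gbp5, 4.52 for Casp1, 3.42 for Nlrp3 and 4.66 for Pycard on the log2 scale.

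Guanylate-binding proteins are large GTPases that interferons induce in many cell types and that coat bacteria and their LPS inside the cell. In mice and in human cells they help LPS to reach the caspases of the inflammasome. An inflammasome is a protein complex in which a sensor such as NLRP3 recruits the adaptor ASC, encoded by Pycard, and the adaptor gathers procaspase-1. Active caspase-1, encoded by Casp1, cleaves the precursors of interleukin-1 beta and interleukin-18 and the pore-forming protein gasdermin D. Caspase-11, encoded by Casp4 in rodents, binds LPS in the cytosol directly. In the brain these components are known mainly from microglia, while guanylate-binding proteins are also made by endothelium and astrocytes under interferon.

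RNA from 1 rat was hybridized to each of 56 arrays. All rats were male Wistar rats aged 3 months. VG rats had a subdiaphragmatic vagotomy and SH rats a sham operation without cutting of the nerve, and both recovered for 30 days. CEL, SC560 and INDOM rats were injected s.c. for 10 days with celecoxib, an inhibitor of cyclooxygenase-2, SC-560, an inhibitor of cyclooxygenase-1, or indometacin, which inhibits both enzymes. scNaCl rats received saline s.c. over the same 10 days. The sources used here do not state the doses of the 3 inhibitors. On the next day each of these rats was injected i.p. with 10 µg LPS in 100 µl saline (LPS groups) or with saline alone (NaCl groups), and the tissue was taken 120 min later. CNT rats underwent no procedure and no injection. The groups held 5 VG LPS, 3 VG NaCl, 4 SH LPS, 4 SH NaCl, 5 CEL LPS, 5 CEL NaCl, 5 SC560 LPS, 5 SC560 NaCl, 3 INDOM LPS, 5 INDOM NaCl, 4 scNaCl LPS, 3 scNaCl NaCl and 5 CNT arrays. A vagotomy below the diaphragm leaves the blood-borne routes of inflammation to the brain intact, and the dissection took the medial hypothalamus as a whole rather than 1 nucleus or cell type.

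Levels are log2 of the deposited linear intensities, which have no absolute unit, so they are compared between rats for 1 gene and not between genes. The array medians lay between 16.4 and 18.9 in linear intensity. Some arrays stood apart. Array 46, a VG LPS rat, had a summed intensity of 278 over 10 hypothalamic marker genes, against 1356 to 3808 in the other 55 arrays. The same array had a summed intensity of 4033 over 5 choroid plexus markers, against 86.2 to 1118 in the others. The remaining 55 arrays carried the hypothalamic markers, with a median log2 level over all arrays of 9.75 for Avp and 10.1 for Oxt. Array 36, an SC560 NaCl rat, and array 4, a CNT rat, carried Gbp5 at the level of LPS rats, and the labels give no reason. Array 49, an INDOM LPS rat, had the highest summed intensity of 9 blood myeloid markers (387, against 73.4 to 299 in the other arrays). Array 38, an SC560 NaCl rat, had the highest sum of 6 meningeal markers (859, against 137 to 730), and the meningeal markers of array 36 lay on average 1.24 above their means on the log2 scale. The arrays carry running numbers up to 56, and from array 41 the groups come round a second time. All INDOM rats were on arrays from 41 onwards, and the CEL, SC560 and VG NaCl rats on arrays up to 40. Of the 4 SH NaCl rats 3 were on arrays from 41 onwards. With the arrays from 41 set against those up to 40 within the groups that hold both, 0 of the 4 genes passed in limma, and 0 at an unadjusted p under 0.05 with or without moderation of the variance, against 0.627% and 15.8% of all clusters.

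The sequences upstream of these genes are shown because motifs for the interferon and NF-kB pathways can be read in them directly. The promoter windows reach from 250 bases before to 50 bases after the start of the gene and come from RefSeq (rat build GRCr8). Of the 6 genes, 5 had an entry, all but Casp4. Capitals mark matches on either strand to the interferon-stimulated response element (ISRE) core GAAANNGAAA, the interferon-gamma activated site (GAS) TTCNNNGAA or the NF-kB consensus. The windows of Gbp5 (chr2:233910749-233911048, + strand), of its neighbour Gbp7 (chr2:233948639-233948938, + strand), of Casp1 (chr8:10872580-10872879, + strand) and of Pycard (chr1:192033370-192033669, - strand) read, 5′ to 3′:
Gbp5: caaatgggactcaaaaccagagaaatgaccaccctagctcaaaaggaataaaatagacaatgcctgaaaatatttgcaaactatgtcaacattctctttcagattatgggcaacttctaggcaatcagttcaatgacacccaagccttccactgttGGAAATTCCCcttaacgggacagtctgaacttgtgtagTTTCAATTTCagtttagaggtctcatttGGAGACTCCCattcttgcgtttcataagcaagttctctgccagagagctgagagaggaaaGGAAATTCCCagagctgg
Gbp7: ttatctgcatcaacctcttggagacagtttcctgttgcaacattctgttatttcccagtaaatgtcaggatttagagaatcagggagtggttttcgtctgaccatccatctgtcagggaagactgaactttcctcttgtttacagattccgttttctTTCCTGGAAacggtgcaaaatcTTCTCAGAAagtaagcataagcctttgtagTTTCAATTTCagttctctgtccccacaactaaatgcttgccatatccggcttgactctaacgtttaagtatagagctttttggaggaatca
Casp1: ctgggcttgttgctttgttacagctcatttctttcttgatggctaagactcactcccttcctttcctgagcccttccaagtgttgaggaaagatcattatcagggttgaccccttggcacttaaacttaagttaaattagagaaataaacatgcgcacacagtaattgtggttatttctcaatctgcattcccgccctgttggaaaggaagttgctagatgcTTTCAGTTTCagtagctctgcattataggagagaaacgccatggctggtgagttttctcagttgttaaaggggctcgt
Pycard: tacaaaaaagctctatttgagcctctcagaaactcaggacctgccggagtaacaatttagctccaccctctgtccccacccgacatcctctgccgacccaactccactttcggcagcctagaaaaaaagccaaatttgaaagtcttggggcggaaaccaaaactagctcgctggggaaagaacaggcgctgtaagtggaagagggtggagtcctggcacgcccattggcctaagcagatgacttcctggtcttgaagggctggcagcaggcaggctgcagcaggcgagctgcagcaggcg

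The Gbp5 window held 1 ISRE core beginning 56 bases before the start and 3 matches to the NF-kB consensus, beginning 94 and 28 bases before and 32 bases after it. The Gbp7 window held 1 ISRE core 41 bases before the start and 2 GAS motifs, 93 and 71 bases before it. The Casp1 window held 1 ISRE core 28 bases before the start and neither of the other motifs. The Gbp2 window also held 1 ISRE core, 31 bases before the start. Nlrp3 had 1 GAS motif, 121 bases before the start, and Pycard had 0 matches to any of the 3. Over all 33469 promoter windows 3.92% held the ISRE core, 8.87% the GAS motif and 4.18% the NF-kB consensus. The ISRE cores did not overlap the GAS or NF-kB matches in these windows. A match says only that these letters occur in the window, and binding was not measured.

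Of the 4 genes measured, only Gbp5 passed the test for an effect of LPS. Pooled over the 6 pretreatments, its level was 2.58 higher on the log2 scale in LPS rats than in NaCl rats (SE 0.37, 26 LPS against 25 NaCl arrays), which is 5.98-fold, with an adjusted p of 2.1e-05 in limma over all 36685 clusters. It ranked in place 17 by p among all clusters. Casp1 was 0.30 higher (SE 0.11), and its unadjusted p of 0.0079 did not survive the adjustment (adjusted p = 0.60). Nlrp3 and Pycard differed by 0.03 (SE 0.09) and -0.13 (SE 0.07), both with an adjusted p of 1.00. Thus 1 of the 4 genes was called, against 0.395% of all clusters (0.346% higher and 0.0491% lower), and 2 of 4 had an unadjusted p under 0.05, against 4.9%. The genes were chosen with earlier results of these data known, so these shares are a description and no independent evidence. The median of the 4 differences was 0.17 and that of all clusters -0.003. Because the tissue is a mixture of cells, more RNA per cell and more cells of a type cannot be told apart in any of these levels.

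The level of Gbp5 in single rats lay in a low range, from 2.27 to 4.38, or in a high range, from 5.17 to 8.14. Values within the high range were graded, and whether the ranges are separate classes was not tested. In VG LPS rats the Gbp5 level was 5.79, 8.14, 3.10, 3.27 and 6.14, against 2.96, 3.10 and 3.66 in VG NaCl rats. In SH LPS rats it was 7.62, 3.33, 7.97 and 6.18, against 3.38, 2.27, 4.19 and 3.92 in SH NaCl rats. In scNaCl LPS rats it was 5.17, 6.52, 6.99 and 6.59, against 3.69, 3.09 and 3.19 in scNaCl NaCl rats. The scNaCl groups did not overlap, whereas 2 of 5 VG LPS rats and 1 of 4 SH LPS rats lay inside the range of the NaCl rats of their own operation. In CEL LPS rats it was 3.82, 7.33, 6.57, 7.95 and 6.90, against 2.86, 3.35, 3.30, 3.16 and 2.81 in CEL NaCl rats. In SC560 LPS rats it was 8.06, 7.25, 7.80, 5.68 and 8.10, against 7.91, 3.06, 4.29, 3.50 and 4.38 in SC560 NaCl rats. In INDOM LPS rats it was 4.02, 3.16 and 7.31, against 4.33, 4.05, 3.79, 3.48 and 2.86 in INDOM NaCl rats. The CEL groups did not overlap, the SC560 groups overlapped only through array 36, and 2 of 3 INDOM LPS rats lay within the range of INDOM NaCl rats. CNT rats had 3.21, 2.60, 3.88, 7.25 and 3.50, of which the fourth is array 4. Of 26 LPS rats 20 lay above 4.38, the second highest of the 25 NaCl rats, and 6 at or below it (arrays 6, 11, 12, 21, 49 and 50).

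**Figure D1:**
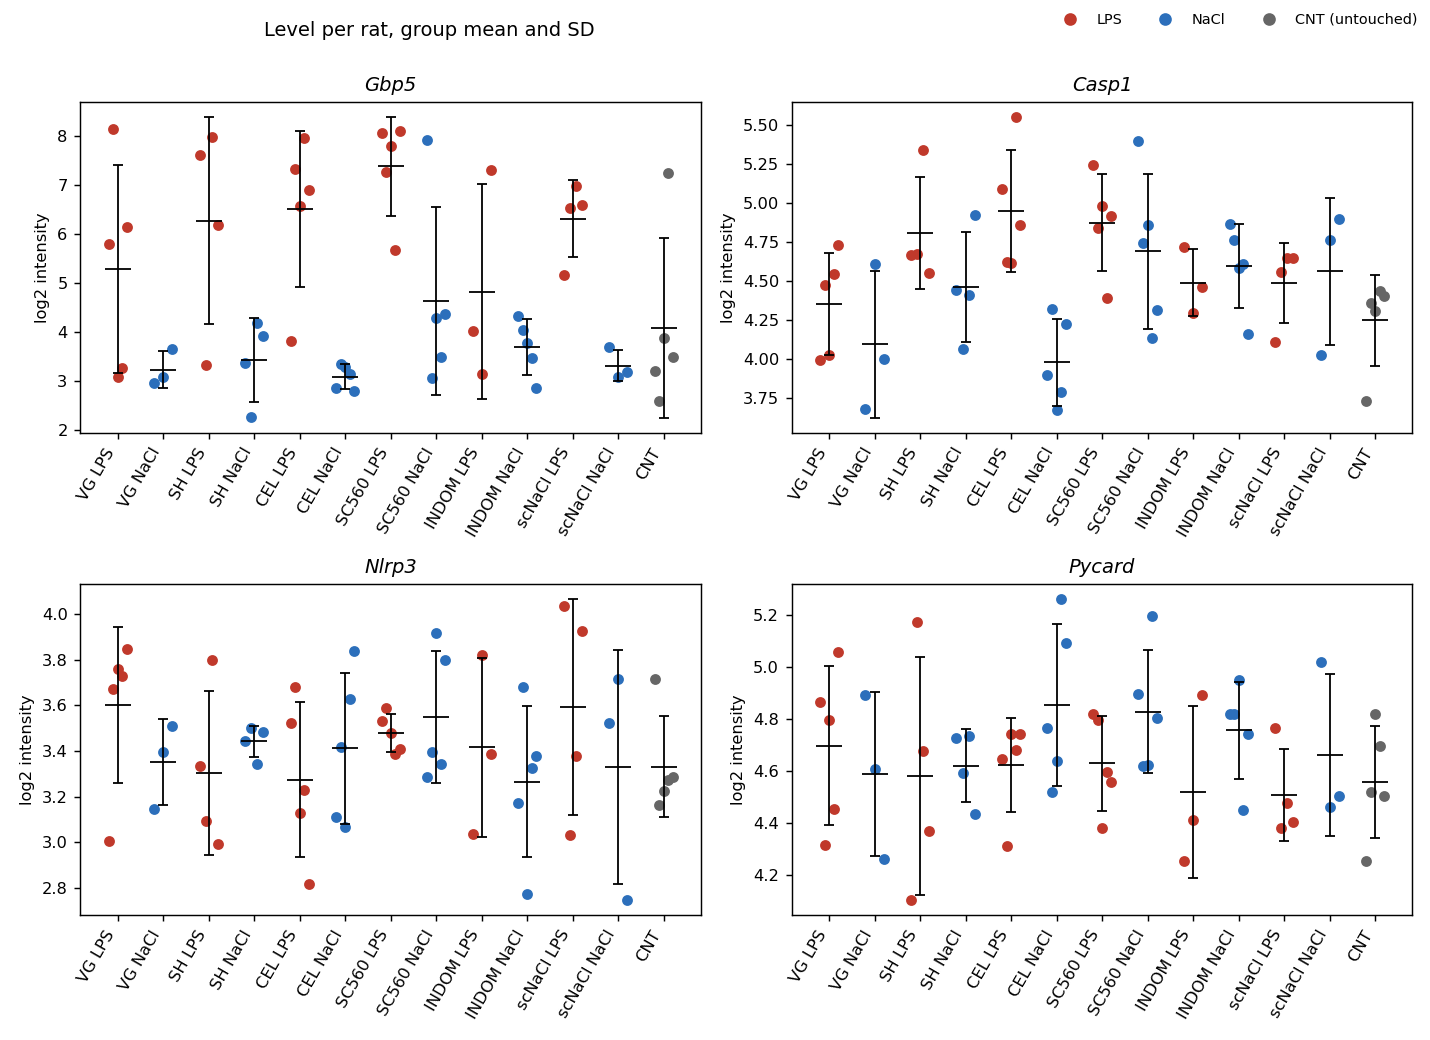
Log2 intensity of Gbp5, Casp1, Nlrp3 and Pycard in each rat (points), with the group mean and SD (bars). Gbp5 reached 5.17 or more in 20 of 26 LPS rats, and array 36 (SC560 NaCl, 7.91) and array 4 (CNT, 7.25) stand above the rest of their groups.

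The effect of LPS on Gbp5 was positive within each pretreatment, from 1.13 to 3.42 on the log2 scale, but in none of them was it called. It was 3.42 (SE 0.74, adjusted p = 0.20 in limma) in CEL rats, 2.99 (SE 0.90, adjusted p = 0.999) in scNaCl rats, 2.84 (SE 1.10, adjusted p = 1.00) in SH rats and 2.75 (SE 0.74, adjusted p = 1.00) in SC560 rats. In VG rats it was 2.05 (SE 1.13, adjusted p = 0.73) and in INDOM rats 1.13 (SE 0.86, adjusted p = 0.95). The count of genes called out of 4 was 0 in each pretreatment, and 0 without moderation of the variance. Over all clusters limma called 0% in SH, scNaCl, CEL and SC560 rats, 0.00273% in VG rats and 0.00818% in INDOM rats. At an unadjusted p under 0.05 the count was 2 of 4 in CEL rats, against 5.57% of all clusters, and 1 of 4 each in SH, scNaCl and SC560 rats, against 3.42%, 4.05% and 3.62%. It was 0 of 4 in VG and INDOM rats, against 7.02% and 5.42%. Every LPS rat lay above every NaCl rat for 1 of the 4 genes in scNaCl rats (2.42% of all clusters) and for 2 of 4 in CEL rats (0.474%). This held for 0 of 4 in VG, SH, SC560 and INDOM rats, against 1.98%, 1.11%, 0.39% and 1.07% of all clusters. A moderated F-test of the difference among the 6 effects gave F = 0.76 for Gbp5, with an adjusted p of 1.00 in limma over 51 arrays.

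Single arrays decided several of these values. Without array 36, the effect of LPS on Gbp5 in SC560 rats was 3.57 and was called (adjusted p = 0.018 in limma), and the pooled effect was 2.73 (adjusted p = 1.4e-06). Without array 21, a CEL LPS rat, the effect in CEL rats was 4.09 and was called (adjusted p = 0.049). Without array 51, the 1 high INDOM LPS rat, the effect in INDOM rats was -0.11. Without array 10 it was 1.33 in VG rats (adjusted p = 0.87), and without array 46 it was 1.83 in VG rats (adjusted p = 0.68) and 2.56 in the pooled comparison (adjusted p = 3.7e-05). The pooled effect was 2.59 with the 2 array sets as a further term. In arrays up to 40 alone it was 2.79 (adjusted p = 0.0021). In arrays from 41 alone, with 3 INDOM LPS rats and 1 LPS rat each of SH and scNaCl, it was 1.87 and was not called. The 1 VG LPS rat on these arrays had no VG NaCl rat to be set against, so it added nothing to this value.

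**Figure D2:**
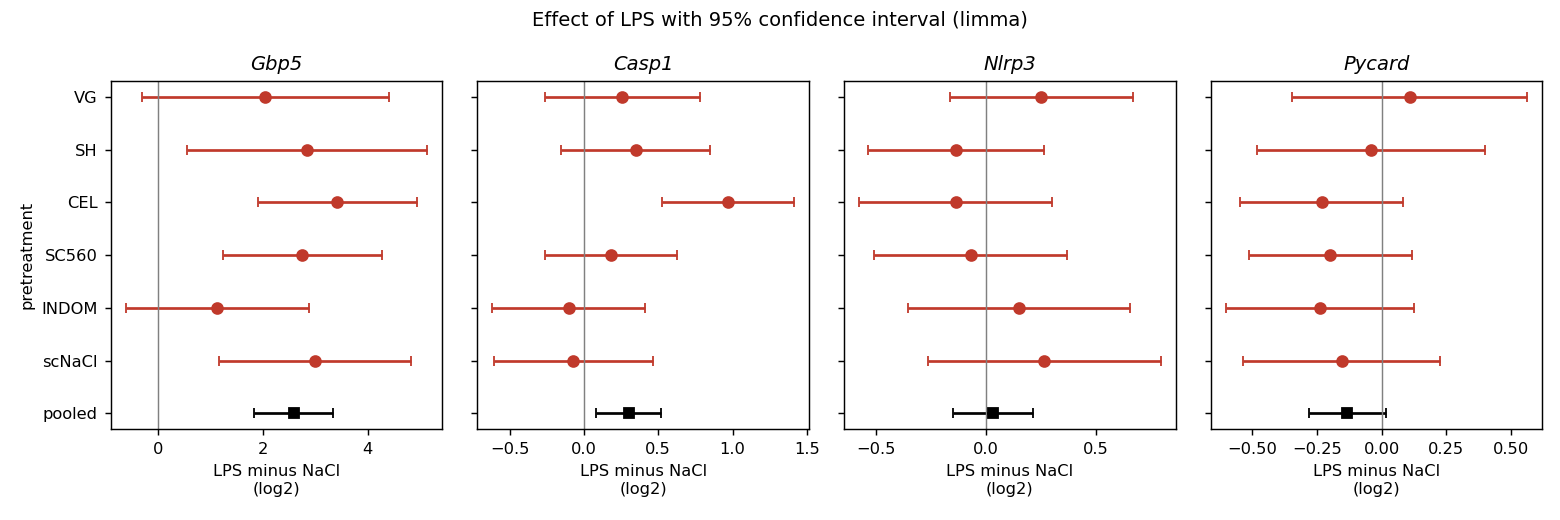
Difference between LPS and NaCl rats (log2, x axis) within each pretreatment (red) and pooled over all 6 (black), with the 95% confidence interval from limma. The pooled interval of Gbp5 runs from 1.83 to 3.33 and that of Casp1 from 0.08 to 0.52.

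The order of the 13 groups by mean Gbp5 level had all 6 LPS groups on top. It began with SC560 LPS (7.38 ± 1.01, SD, n = 5), CEL LPS (6.51 ± 1.59, n = 5), scNaCl LPS (6.32 ± 0.79, n = 4) and SH LPS (6.27 ± 2.11, n = 4). VG LPS (5.29 ± 2.12, n = 5) and INDOM LPS (4.83 ± 2.19, n = 3) followed. SC560 NaCl came next at 4.63 ± 1.91 (n = 5) and then CNT at 4.09 ± 1.83 (n = 5), the 2 groups that hold arrays 36 and 4. The 5 other NaCl groups lay between 3.10 and 3.70. No neighbours in this order differed by more than the larger of their SDs. The SD within LPS groups was 0.79 to 2.19, and within NaCl groups 0.25 to 1.91.

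Array 36 and array 4 were high not in Gbp5 alone. In array 36 Gbp7 was 6.95, against 2.86 to 3.72 in the 4 other SC560 NaCl rats. In the same array Irgm was 5.84 against 4.13 to 4.50, Nfkbia 7.50 against 5.40 to 5.99, and Casp1 5.40 against 4.13 to 4.86. In array 4 Gbp7 was 5.96 against 2.57 to 3.59 in the 4 other CNT rats, and Nfkbia was 7.17 against 5.37 to 6.03. Casp1 in array 4 was 4.44 against 3.73 to 4.41. The reverse held for LPS rats with low Gbp5, though not for every gene. In array 6 (SH LPS) Gbp5 was 3.33 against 6.18 to 7.97 in its group, Gbp7 2.55 against 4.63 to 6.89 and Nfkbia 5.56 against 7.53 to 7.75. In array 21 (CEL LPS) Gbp5 was 3.82 against 6.57 to 7.95 in its group, but Nfkbia, at 7.40, lay within the 6.92 to 7.75 of the 4 others, and Casp1 was 5.09. In arrays 49 and 50 (INDOM LPS) Gbp5 was 4.02 and 3.16, against 7.31 in array 51. Their Nfkbia was 7.15 and 6.93, against 7.75 in array 51 and 5.55 to 7.22 in the INDOM NaCl rats. In arrays 11 and 12 (VG LPS) Gbp5 was 3.10 and 3.27. Nfkbia in these arrays was 5.67 and 6.08, against 5.53 to 5.73 in VG NaCl rats. Irgm was 4.33 and 5.40, against 4.02 to 4.58 in VG NaCl rats.

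**Figure D3:**
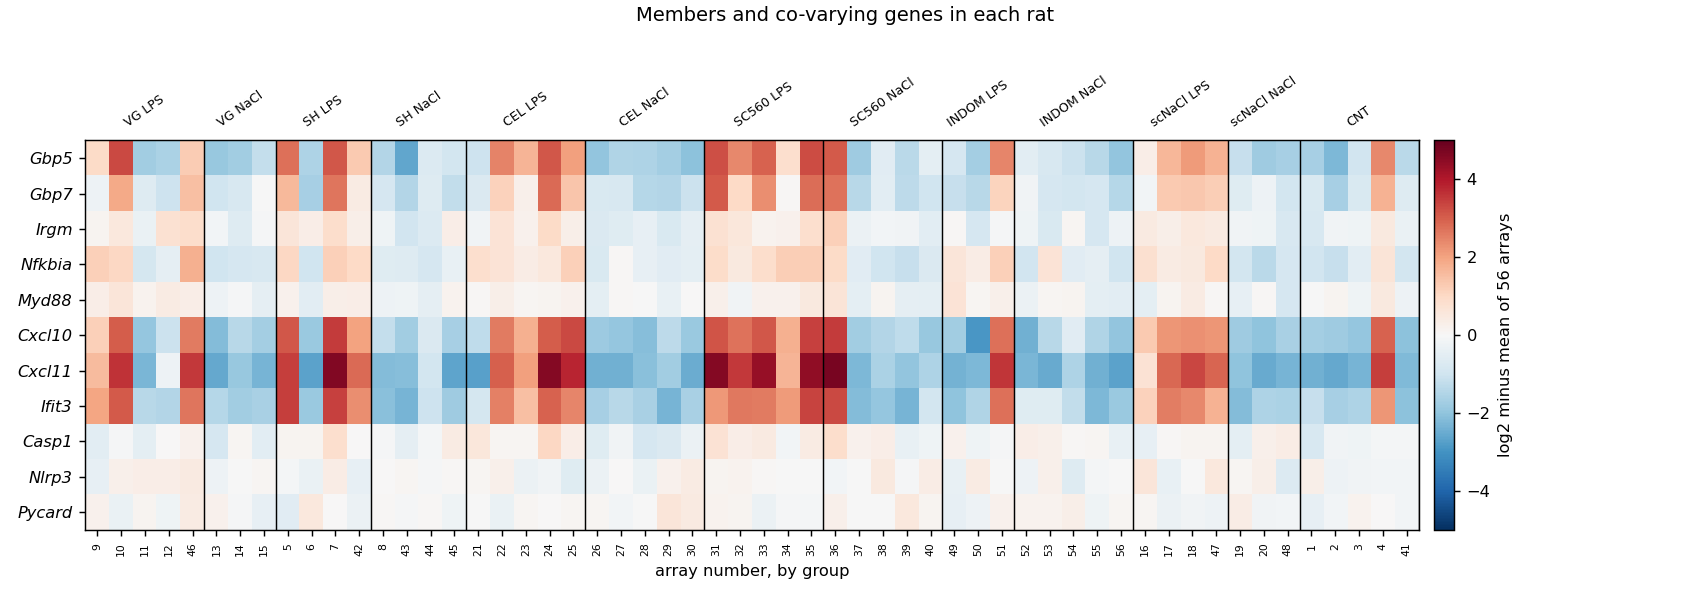
Log2 level of each gene minus its mean over the 56 arrays (colour, from -5 in blue to 5 in red) in each rat, ordered by group. Gbp5, Gbp7, Cxcl10, Cxcl11 and Ifit3 are high in the same rats, arrays 36 and 4 included, while Nlrp3 and Pycard stay near their means.

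Gbp7 lies next to Gbp5 on chromosome 2, in a row of 6 guanylate-binding protein genes in the order Gbp5, Gbp7, Gbp4, Gbp2, Gbp1 and Gbp3 (RefSeq, GRCr8). It was the only other guanylate-binding protein gene called among 4 measured of the 7 listed: its pooled effect of LPS was 1.53 (SE 0.31, adjusted p = 0.0043 in limma). In VG LPS rats Gbp7 was 3.97, 6.14, 3.58, 3.19 and 5.74, against 3.24, 3.43 and 4.21 in VG NaCl rats. In SC560 LPS rats it was 7.30, 5.21, 6.54, 4.27 and 7.04, against 6.95, 2.86, 3.72, 2.93 and 3.24 in SC560 NaCl rats. Over all pretreatments 18 of 26 LPS rats lay above 4.21, the second highest NaCl rat. For the other measured genes of the family the pooled difference was close to zero. It was 0.09 (SE 0.14) for Gbp1, 0.03 (SE 0.09) for Gbp3 and 0.09 (SE 0.18) for Gbp6, each with an adjusted p of 1.00. Their clusters were dim: the median level in LPS rats was 2.83, 2.80 and 3.49. The median over the mean levels of all clusters was 4.08. Whether a response would show at such low levels was not tested. Genes of this family are similar in sequence, so that probes of one may also bind transcripts of another, and this was not tested. Without the CEL rats the effect on Gbp7 was 1.39 and was not called (adjusted p = 0.089).

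Casp1 differed most between LPS and NaCl rats in the animals given celecoxib, without being called there. In CEL LPS rats its level was 5.09, 4.62, 4.61, 5.55 and 4.86, against 3.89, 4.32, 3.67, 3.79 and 4.22 in CEL NaCl rats. Every CEL LPS rat lay above every CEL NaCl rat, and the difference was 0.97 (SE 0.22), with an unadjusted p of 0.000103 and an adjusted p of 0.27 in limma. In SC560 LPS rats it was 5.25, 4.84, 4.98, 4.39 and 4.91, against 5.40, 4.74, 4.86, 4.13 and 4.31 in SC560 NaCl rats. In VG LPS rats it was 3.99, 4.47, 4.03, 4.54 and 4.73, against 3.68, 4.61 and 4.00 in VG NaCl rats. In SH LPS rats it was 4.67, 4.67, 5.34 and 4.55, against 4.44, 4.07, 4.41 and 4.92 in SH NaCl rats. The groups overlapped in these 3 pretreatments. In INDOM LPS rats it was 4.72, 4.29 and 4.46, against 4.86, 4.76, 4.58, 4.61 and 4.16 in INDOM NaCl rats. In scNaCl LPS rats it was 4.11, 4.56, 4.64 and 4.64, against 4.02, 4.76 and 4.90 in scNaCl NaCl rats. In these 2 pretreatments the LPS rats lay within the range of the NaCl rats. CNT rats had 3.73, 4.36, 4.31, 4.44 and 4.41.

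The effect of LPS on Casp1 was 0.35 (SE 0.24) in SH rats, 0.26 (SE 0.25) in VG rats and 0.18 (SE 0.22) in SC560 rats. Without array 46 it was 0.16 in VG rats, and without array 36 it was 0.36 in SC560 rats and 0.34 in the pooled comparison (adjusted p = 0.28). It was -0.07 (SE 0.26) in scNaCl rats and -0.10 (SE 0.25) in INDOM rats. The F-test among the 6 effects gave F = 2.76 with an unadjusted p of 0.030, but an adjusted p of 1.00 in limma. Casp1 was the 1 gene of the 4 with an unadjusted p under 0.05 in this test, against 4.3% of all clusters, and 0% were called. The effect in CEL rats exceeded that in scNaCl rats by 1.04 (95% interval 0.34 to 1.73, unadjusted p = 0.0047, adjusted p = 0.999). CEL LPS rats were 0.46 above scNaCl LPS rats (SE 0.23) and CEL NaCl rats 0.58 below scNaCl NaCl rats (difference -0.58, SE 0.25, unadjusted p = 0.027), with an adjusted p of 1.00 each. CEL NaCl had the lowest group mean of Casp1 (3.98 ± 0.28, SD, n = 5) and CEL LPS the highest (4.95 ± 0.39, n = 5), and no neighbouring groups in the order differed by more than the larger of their SDs. In arrays from 41 alone, which hold no CEL rats, the pooled effect on Casp1 was -0.082, and without the CEL rats it was 0.13 (adjusted p = 1.00).

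No response to LPS was detected for Nlrp3, the sensor, or Pycard, the adaptor. Nlrp3 lay between 2.82 and 4.04 with a median of 3.44 in the 26 LPS rats, and between 2.75 and 3.92 with a median of 3.40 in the 25 NaCl rats. Its effect of LPS ranged from -0.14 (SE 0.19 in SH rats, SE 0.21 in CEL rats) to 0.26 (SE 0.26 in scNaCl rats). Pycard lay between 4.11 and 5.17 with a median of 4.62 in LPS rats, and between 4.26 and 5.26 with a median of 4.73 in NaCl rats. Its effect ranged from -0.24 (SE 0.18 in INDOM rats) to 0.11 (SE 0.22 in VG rats). The pooled 95% interval ran from -0.15 to 0.21 for Nlrp3 and from -0.28 to 0.02 for Pycard. The Nlrp3 cluster was dim, with 36.8% of all clusters dimmer, and how this bears on the size of a difference was not tested. The group means of each gene spread over 0.34 for Nlrp3 and 0.35 for Pycard, and no neighbours in their order differed by more than the larger SD.

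Vagotomy was compared with the sham operation under each injection. Under LPS, Gbp5 was 0.99 lower in VG than in SH rats (difference -0.99, 95% interval -3.16 to 1.18, adjusted p = 1.00 in limma) and Casp1 0.45 lower (difference -0.45, 95% interval -0.93 to 0.02, adjusted p = 1.00). Under NaCl the differences were -0.20 (95% interval -2.67 to 2.27) for Gbp5 and -0.37 (95% interval -0.91 to 0.18) for Casp1. The effect of LPS in VG rats minus that in SH rats was -0.79 for Gbp5 (95% interval -4.08 to 2.50) and -0.09 for Casp1 (95% interval -0.81 to 0.64). Of the 4 genes 0 were called in any of these 3 comparisons, and 0 at an unadjusted p under 0.05, with or without moderation. Over all clusters 0%, 0% and 0.00273% were called, and 4.14%, 7.97% and 5.37% had an unadjusted p under 0.05. Without array 46, Gbp5 under LPS was 1.20 lower in VG rats (difference -1.20, adjusted p = 1.00), and Casp1 0.55 lower (difference -0.55, adjusted p = 0.97), and the VG minus SH differences of the effect were -1.003 for Gbp5 and -0.18 for Casp1. Single SH LPS rats moved the Gbp5 values further: the difference under LPS was -1.97 without array 6 and -0.42 without array 7, and the VG minus SH difference of the effect was -1.77 without array 6 and -0.22 without array 7. The intervals of Gbp5 are wide enough to hold an effect as large as that of LPS itself.

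The inhibitors were set against s.c. saline. Under LPS the difference in Gbp5 was 0.20 for CEL (95% interval -1.41 to 1.80), 1.06 for SC560 (95% interval -0.54 to 2.67) and -1.49 for INDOM rats (95% interval -3.32 to 0.34). Under NaCl it was -0.23 for CEL (95% interval -1.97 to 1.52), 1.31 for SC560 (95% interval -0.44 to 3.05) and 0.38 for INDOM rats (95% interval -1.37 to 2.12). The value in SC560 NaCl rats was 0.49 without array 36. The value in INDOM LPS rats was -2.73 without array 51 (adjusted p = 0.43) and -0.65 without array 50. The effect of LPS differed from that in scNaCl rats by 0.42 in CEL, -0.24 in SC560 and -1.87 in INDOM rats (95% interval -4.39 to 0.66 for INDOM). The SC560 value was 0.58 without array 36, and the INDOM value was -3.11 without array 51 and -1.03 without array 50. For Casp1 under LPS the difference was 0.38 for SC560 (95% interval -0.09 to 0.85) and 0.00 for INDOM rats (95% interval -0.54 to 0.54). Under NaCl it was 0.13 for SC560 and 0.03 for INDOM rats. The effect of LPS on Casp1 differed by 0.25 in SC560 and -0.03 in INDOM rats from that in scNaCl rats. Without array 36 the Casp1 values of SC560 rats were -0.048 under NaCl and 0.43 for the difference of the effect. Of the 4 genes 0 were called in these 9 comparisons, and at an unadjusted p under 0.05 only Casp1 passed, in CEL NaCl against scNaCl NaCl and in the difference of the effects of CEL and scNaCl. Of all clusters 0.00818% were called in INDOM LPS against scNaCl LPS and 0% in the 8 others. An unadjusted p under 0.05 was met by 4.61%, 4.19% and 4.98% of all clusters in CEL, SC560 and INDOM rats under LPS, by 4.62%, 3.96% and 5.51% under NaCl and by 4.28%, 3.64% and 4.42% for the differences of the effect.

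Celecoxib and SC-560 rats were also set against each other. For Casp1, CEL NaCl rats were 0.71 below SC560 NaCl rats (difference -0.71, 95% interval -1.15 to -0.27, unadjusted p = 0.0027, adjusted p = 0.90 in limma), while CEL LPS and SC560 LPS rats differed by 0.07 (95% interval -0.37 to 0.52, adjusted p = 0.999). For Gbp5 the difference was -1.53 under NaCl (95% interval -3.05 to -0.02) and -0.86 under LPS (95% interval -2.38 to 0.65), with adjusted p of 0.998 and 0.999. Without array 36 the differences under NaCl were -0.53 for Casp1 and -0.71 for Gbp5. Since the doses are not given, the values describe these rats and do not rank the compounds. Neither comparison called a gene of the 4 (0% of all clusters), and at an unadjusted p under 0.05 the count was 2 under NaCl (4.88% of all clusters) and 0 under LPS (4.5%), or 1 and 0 without moderation.

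Against untouched CNT rats, Gbp5 was 2.19 higher in SH LPS (95% interval 0.02 to 4.36) and 1.20 higher in VG LPS rats (95% interval -0.85 to 3.24). The NaCl groups gave -0.65 (SH), -0.85 (VG) and -0.77 (scNaCl). Without array 4 these 5 differences were 2.98, 1.99, 0.14, -0.06 and 0.02, so that the NaCl groups lay close to the 4 remaining CNT rats. Casp1 differed from CNT by 0.56 in SH LPS (95% interval 0.08 to 1.04), 0.10 in VG LPS, 0.21 in SH NaCl, -0.15 in VG NaCl and 0.31 in scNaCl NaCl rats. Without array 4 these were 0.61, 0.15, 0.26, -0.11 and 0.36, and without array 46 VG LPS rats differed from CNT by 0.99 in Gbp5 and 0.010 in Casp1. In limma 0 of 4 genes were called in each of these comparisons (0% of all clusters), and at an unadjusted p under 0.05 the count was 2 in SH LPS (1 without moderation) and 0 in the 4 others. Over all clusters 3.6% met it in SH LPS, 5.77% in VG LPS, 4.93% in SH NaCl, 6.08% in VG NaCl and 3.0% in scNaCl NaCl rats.

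The genes whose level followed Gbp5 most closely were interferon-induced. Over the 56 arrays the 3 highest Pearson r were 0.97 for Cxcl11 and 0.96 for Cxcl10, chemokines that draw T cells, and 0.96 for Ifit3, a member of the antiviral IFIT family. With the group means taken out, r was 0.94, 0.93 and 0.93. Gbp7 stood at 0.94 and 0.92. Without arrays 4, 36 and 46, which was chosen after seeing the data, r over the remaining 53 arrays was 0.97 for Cxcl11, 0.96 for Cxcl10, 0.96 for Ifit3 and 0.94 for Gbp7. These values describe arrays that fall into a low and a high range of Gbp5, all 56 arrays were normalized together, and the median r of Gbp5 with all genes was -0.004. Of the genes induced by LPS, Nfkbia had r = 0.81 and Irgm 0.79. The r of Gbp5 with Casp1 was 0.56 (0.39 without group means), with Nlrp3 0.02 and with Pycard -0.16. The 99th percentile of r with Gbp5 over all genes was 0.51 (0.46 without group means). Casp1 thus lay above this percentile over the 56 arrays, and below it with the group means taken out.

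**Figure D4:**
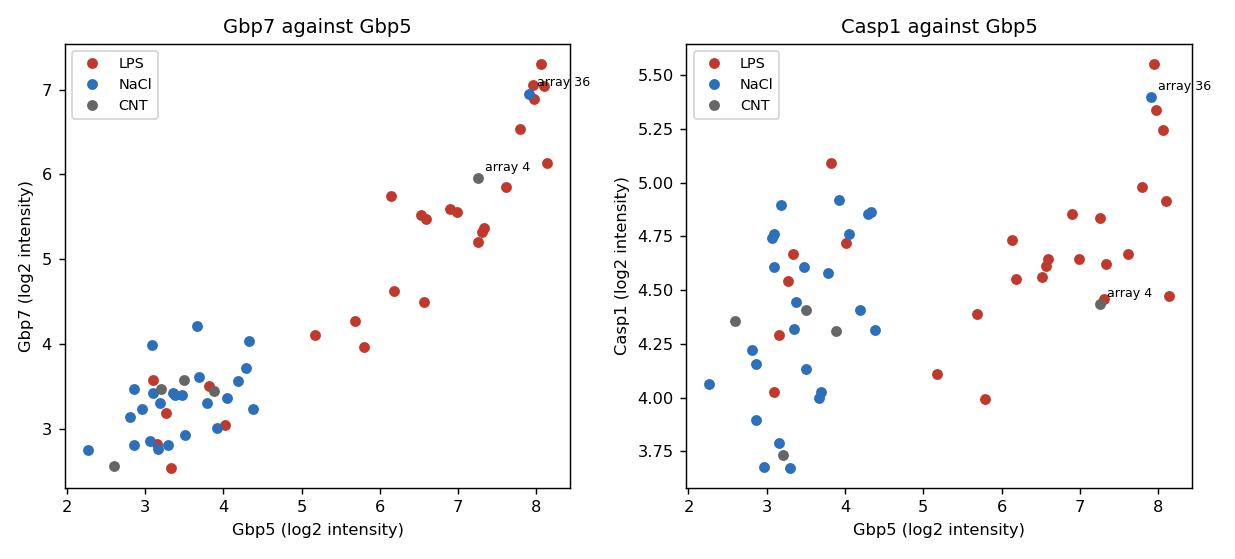
Gbp7 (left) and Casp1 (right) against Gbp5 in each of the 56 rats (log2 intensity on all axes), with LPS, NaCl and CNT rats in red, blue and grey. Gbp7 is high in the rats with high Gbp5 (r = 0.94). Casp1 follows Gbp5 less closely and spreads at both low and high Gbp5 (r = 0.56, against a 99th percentile of 0.51 over all genes).

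Casp1 had its highest r with Csf2rb (0.66), the shared beta subunit of cytokine receptors, Trim25 (0.65), a ubiquitin ligase of antiviral sensing, and Tap2 (0.64), which carries peptides to MHC class I. Without the group means these were 0.65, 0.57 and 0.61. Nlrp3 was closest to Smc2, Maml2 and Dnajc3 (r = 0.49, 0.49 and 0.48), and Pycard to Ticrr, Chrdl1 and Akap4 (r = 0.57, 0.54 and 0.48). The 99th percentile of r over all genes was 0.40 with Casp1, 0.34 with Nlrp3 and 0.31 with Pycard. The genes named are the highest of 14553, picked by r itself. How high such a maximum runs by chance was not tested, so these r are a description only. For Nlrp3 and Pycard r with Casp1 was -0.03 and -0.14.

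In the wider pathway few genes passed. Immunity-related GTPases include members that interferon-gamma induces and that act on the membranes around pathogens. Of 4 measured 1 was called: Irgm was 0.68 higher under LPS (SE 0.12, adjusted p = 4.5e-04 in limma). Its level was 4.77, 5.17, 4.33, 5.40 and 5.53 in VG LPS rats, against 4.52, 4.02 and 4.58 in VG NaCl rats, and 5.10, 4.95, 5.18 and 5.08 in scNaCl LPS rats, against 4.46, 4.42 and 3.84 in scNaCl NaCl rats. The scNaCl groups did not overlap in Irgm and the VG groups did. Of the other GTPases, Ifi47 differed by 0.52 (SE 0.16, unadjusted p = 0.0019, adjusted p = 0.25 in limma). Irgc differed by -0.07 (SE 0.13) and Irgq by 0.002 (SE 0.06). Among 12 genes of LPS sensing and priming 2 were called: Nfkbia, the inhibitor that NF-kB induces against itself, was 1.34 higher (SE 0.16, adjusted p = 1.9e-06) and Myd88, the adaptor of Toll-like receptors, 0.41 higher (SE 0.09, adjusted p = 0.0075). Myd88 was not called without the VG rats (adjusted p = 0.10), the CEL rats (adjusted p = 0.051) or the INDOM rats (adjusted p = 0.051). Without array 36 the pooled effects of these genes were 1.65 for Gbp7, 0.74 for Irgm, 1.40 for Nfkbia and 0.45 for Myd88, and without array 46 they were 1.495 for Gbp7, 0.66 for Irgm, 1.30 for Nfkbia and 0.41 for Myd88, all called (highest adjusted p = 0.010). Nfkbia lay between 5.56 and 8.32 with a median of 7.42 in the 26 LPS rats, and between 5.20 and 7.50 with a median of 5.83 in the 25 NaCl rats.

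None of 8 other inflammasome sensors, 13 regulators, 8 pyroptosis and cytokine substrates, 4 other caspases and 12 genes of interferon signalling was called in limma. At an unadjusted p under 0.05 these lists held 0, 0, 2, 0 and 3 genes, and without moderation of the variance 0, 0, 0, 0 and 1 were called. Il1b, whose product caspase-1 cleaves, differed by 0.41 (SE 0.15, adjusted p = 0.56), and Il33, an alarmin, by 0.22 (SE 0.09, adjusted p = 0.74). Irf2, a repressor of interferon-stimulated genes, differed by 0.22 (SE 0.06, adjusted p = 0.063) and is the gene that passed without moderation (adjusted p = 0.039). It was called in 13 of 67 other settings in all, 8 of them with 1 array left out. Stat2, a factor of type I interferon signalling, differed by 0.18 (SE 0.08, adjusted p = 0.90). Nlrp10 (0.10) and Nlrp12 (-0.11), Nlrx1 (0.16), P2rx4 (-0.13), Casp14 (0.15) and Casp8 (-0.09) had the smallest p in their lists, each with an adjusted p of 1.00. The median difference was 0.09 for the other guanylate-binding proteins, 0.26 for the immunity-related GTPases, -0.04 for the sensors, 0.01 for the regulators, 0.10 for the substrates, 0.04 for the caspases, 0.05 for interferon signalling and 0.09 for LPS sensing, against -0.003 over all clusters.

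**Figure D5:**
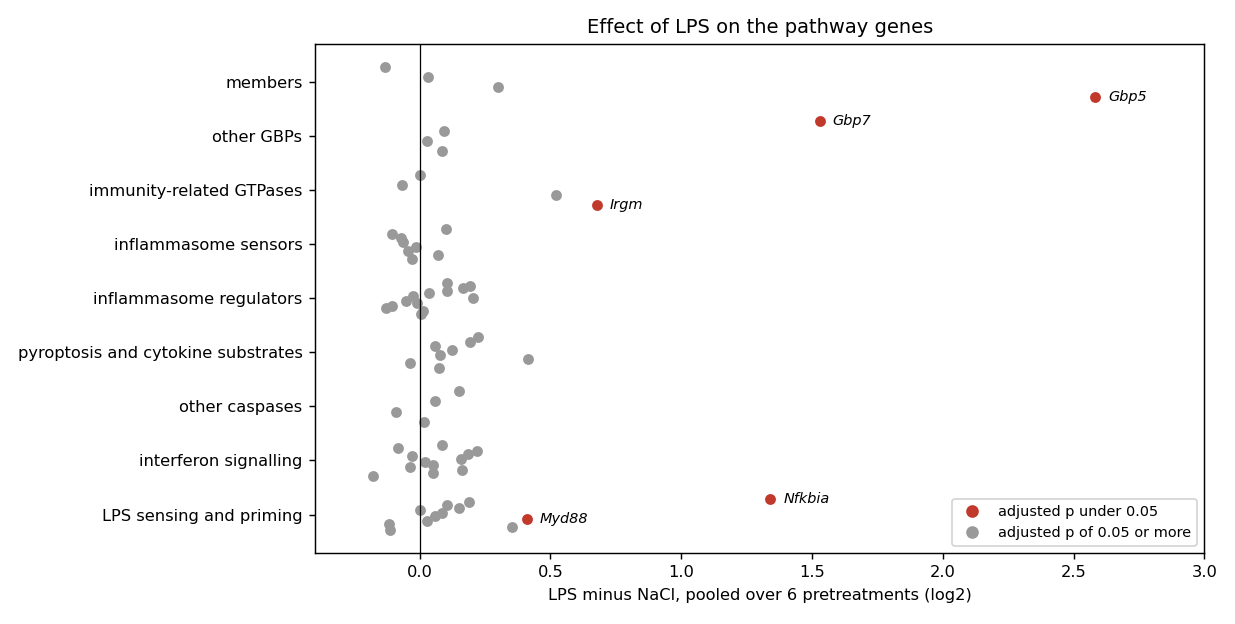
Pooled effect of LPS (LPS minus NaCl, log2) on each measured gene of the pathway lists, 1 point per gene, with genes called in limma in red. Gbp5 (2.58), Gbp7 (1.53), Nfkbia (1.34), Irgm (0.68) and Myd88 (0.41) are called.

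Markers of the cells that could carry these genes were read in the same arrays. Of 9 measured microglial markers 0 were called under LPS (1 at an unadjusted p under 0.05, 0 called without moderation). Their summed intensity was 389 to 746 in LPS rats, against 439 to 863 in NaCl rats. Of 9 blood myeloid markers 1 was called, Lcn2 (1.38 higher, SE 0.22, adjusted p = 1.0e-04), while 3 of 9 had an unadjusted p under 0.05. The other 2 were S100a8 (difference 0.66, SE 0.20, adjusted p = 0.27) and S100a9 (difference 0.73, SE 0.21, adjusted p = 0.20), the subunits of calprotectin, and 7 of 9 had a positive difference. The remaining markers were Fcnb (0.21), Mmp8 (0.05), Ccr2 (0.05), Ly6c (0.007), Cxcr2 (-0.001) and Csf3r (-0.06). The summed intensity of the 9 blood myeloid markers was 85.9 to 387 with a median of 131 in LPS rats, against 75.3 to 255 with a median of 96.2 in NaCl rats. Of 9 lymphocyte markers 0 were called (0 at an unadjusted p under 0.05 and 0 without moderation), and their summed intensity was 60.2 to 113 in LPS rats, against 61.3 to 97.6 in NaCl rats. Of 8 endothelial markers 2 were called lower, Cldn5 and Tek (by 0.92 and 0.44), and 1 higher, Esam (by 0.48). Of the 8, 5 had an unadjusted p under 0.05 and 2 were called without moderation. Over all clusters 0.395% were called and 4.9% had an unadjusted p under 0.05. Slco1c1 (-0.38) and Tie1 (-0.30) were lower without being called. Esam was the only 1 of the 8 endothelial markers with a positive difference, and their median difference was -0.19. Their summed intensity was 295 to 666 in LPS rats, against 464 to 673 in NaCl rats. The mean log2 level of the endothelial markers had an r of -0.58 with Gbp5 over the 56 arrays, that of the blood myeloid markers 0.40 and that of the microglial markers -0.04. With Casp1 these r were -0.25, 0.43 and 0.10. The 99th percentile of r over all genes was 0.51 with Gbp5 and 0.40 with Casp1. These percentiles are of single genes, whereas each marker value is a mean over several genes, so they are not directly comparable. The part of these cells in the levels of Gbp5 and Casp1 was not tested. Which cells carried Lcn2 was not tested either, and Lcn2 is 1 of the 9 genes in the blood myeloid mean.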

How the data were processed

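Total RNA of the medial hypothalamus was hybridized to Affymetrix Rat Gene 2.1 ST array strips, 1 rat per array. For each transcript cluster the deposited table holds 1 intensity per rat. Per the labels it was made with RMA in Affymetrix Expression Console (version not stated), while the published methods describe Partek Genomics Suite with RMA background subtraction, quantile scaling, log2 and median polish, annotated on Rnor_6.0. The deposited intensities were linear (1.75 to 7820), whereas log2 values had been planned for, so their log2 was taken. All 36685 clusters were kept. Per the array's annotation 14824 clusters carried 1 symbol, 829 several and 21032 none.

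Groups were compared with limma 3.58.1 in R 4.3.3 (lmFit, contrasts.fit, eBayes) over the 21 arrays of the VG, SH and CNT groups, the 35 arrays of the s.c. groups, the 51 injected arrays (pooled effect with 6 additive pretreatments, and the F-test of their interaction) or all 56 (scNaCl NaCl against CNT). The p-values were adjusted by Benjamini-Hochberg over all clusters, with a threshold of 0.05, in 28 comparisons. Nothing states that rats of a group came from separate cohorts, so p-values measure the spread between these rats; the number of arrays limits the precision. The members and gene lists were chosen with earlier results of these data known, and the effect of LPS on Gbp5 is no independent evidence. Besides the members, the 3 genes of highest r with each member are named, and from each list up to 4 called genes with the largest pooled difference, or else the 2 of smallest p. Genes named beyond that, such as the remaining guanylate-binding proteins, the remaining immunity-related GTPases and single markers, were chosen after their values were seen. On simulated data with normal noise and a constant shift, the pooled fit recovered 99% of clusters changed by 1 and 100% of those changed by 2. SH LPS against SH NaCl recovered 56% and 93%. With CEL LPS rats alone shifted, the CEL minus scNaCl difference of the effect recovered 20% and 83%, and the F-test 45% and 81%. False calls were 2.93% of all calls in the pooled fit and 8.59% in the SH comparison. Such noise has no low and high range like that of Gbp5, so these rates do not apply to it. Figures were drawn with matplotlib 3.10.9.

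For Gbp5 and Casp1 in all 28 comparisons, for Nlrp3 and Pycard in 8 (the effect of LPS pooled and in each pretreatment, and the F-test), and for the pathway genes named by the rule in the pooled comparison, the values were recomputed with the methods' analysis of variance (no moderation of the variance), with a trended, robust prior, with all 56 arrays in 1 fit or with the compared groups only, on clusters above the median level, after repeating the quantile step, with a term for the array set, without the arrays labelled with a second run number, with array weights and with each array omitted. For the pooled effect each pretreatment was omitted and each array set was taken alone. The correlations were also taken without arrays 4, 36 and 46, which was chosen after seeing the data.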

Additional observations from a re-analysis of the deposited data

Results flagged for a closer look

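In groups of 4 or 5 rats the highest or lowest array was compared with its nearest neighbour, over 40 sets of 1 gene and 1 group. In 8 of them the gap exceeded the 95% limit of Dixon's test, where chance alone passes about 1 in 20. Gbp5 was 7.91 on the log2 scale in array 36, far above the other SC560 NaCl rats (gap 0.729 of the range, limit 0.71), and 7.25 in array 4, far above the other CNT rats (0.724 of the range). Casp1 was 5.34 in array 7, above the other SH LPS rats (0.849 of the range, limit 0.829), 4.11 in array 16, below the other scNaCl LPS rats (0.842), and 3.73 in array 1, below the other CNT rats (0.818). Nlrp3 was 3.00 in array 9, below the other VG LPS rats (0.791 of the range), and 3.72 in array 1, above the other CNT rats (0.779). Pycard was 4.31 in array 22, below the other CEL LPS rats (0.774 of the range).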

How the results depend on the processing

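Gbp5 and Casp1 were recomputed in 28 comparisons each, and Nlrp3 and Pycard in 8 each; their other comparisons were not recomputed. Of these 1706 values 1645 kept their sign and their side of the threshold, 58 changed sign, 2 gained a call and 1 lost it. None of the values that changed sign was called. Gbp5 in the pooled comparison stayed called in all settings but arrays from 41 alone, where it was 1.87 and the genes and clusters called were 0 and 0, with fewer rats. With 1 array left out it ran from 2.49 to 2.73. The 145 clusters called in the pooled comparison became 96 without the scNaCl rats, 95 without the SC560 rats and 56 in arrays up to 40 alone; the cause was not tested beyond the smaller number of rats. Gbp7 was not called without the CEL rats (1.39), in arrays up to 40 alone (1.65) or from 41 alone (0.92), and Myd88 without the VG (0.37), CEL (0.43) or INDOM (0.38) rats and in either array set (0.36 and 0.60). Irgm and Nfkbia were not called only in arrays from 41 alone (0.44 and 1.39). Irf2 was called in 13 of 67 settings (lowest adjusted p = 0.029).

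In arrays from 41 alone the pooled effect was -0.082 for Casp1 and -0.086 for Casp14. For Nlrp3 it was -0.0054 without VG rats, -0.0035 without scNaCl rats and -0.044 in arrays up to 40 alone. Without arrays of a second run number Casp1 differed by 0.028 between scNaCl LPS and scNaCl NaCl and by 0.054 between VG NaCl and CNT. With a term for the array set it differed by -0.26 between INDOM LPS and scNaCl LPS and by -0.20 between INDOM NaCl and scNaCl NaCl. After a repeated quantile step the INDOM NaCl difference was -0.016 and the INDOM minus scNaCl difference of the effect 0.022. With array weights Gbp5 differed by -0.079 between the array sets. For these changes of sign the cause was not tested.

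With 1 array left out in turn, the effect of LPS ran from -0.0061 to 0.058 for Nlrp3 in the pooled comparison. For Pycard it ran from -0.24 to 0.12 in SH, from -0.053 to 0.26 in VG and from -0.25 to 0.024 in scNaCl rats. For Nlrp3 it ran from -0.027 to 0.46 in scNaCl, from -0.14 to 0.023 in SC560 and from -0.054 to 0.34 in INDOM rats. For Casp1 in scNaCl rats it ran from -0.34 to 0.10, and for Gbp5 in INDOM rats from -0.11 to 1.96. The genes called ran from 0 to 1 in CEL rats (1 without array 21) and from 0 to 1 in SC560 rats (1 without array 36). Gbp5 ran from -0.59 to 0.053 for VG NaCl against SH NaCl, from -0.18 to 0.87 for CEL LPS against scNaCl LPS and from -0.64 to 0.58 for the SC560 minus scNaCl difference of the effect. It ran from -1.02 to 0.14 for SH NaCl against CNT, from -1.14 to 0.025 for scNaCl NaCl against CNT and from -0.14 to 0.26 between the array sets. Casp1 ran from -0.30 to 0.17 for the VG minus SH difference of the effect, from -0.14 to 0.30 for SC560 NaCl against scNaCl NaCl and from -0.077 to 0.17 for CEL LPS against SC560 LPS. For INDOM against scNaCl it ran from -0.13 to 0.10 under LPS, from -0.24 to 0.20 under NaCl and from -0.20 to 0.24 for the difference of the effect. Against CNT it ran from -0.024 to 0.20 for VG LPS and from -0.41 to 0.054 for VG NaCl.

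No paired analysis was possible because the labels number arrays and no number is shared between groups. Each gene had 1 cluster, so a next brightest cluster gave no value, and Nlrp3 had none among clusters above the median level. With 3 to 5 rats a group, the intervals of Gbp5 within pretreatments span several log2 units.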
